A study of Homo sapiens with 60 samples.

Results

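Cytosolic ribosomal protein genes encode the proteins that, with ribosomal RNA, make up the small and the large subunit of the ribosome outside mitochondria. They were taken from the count table as every protein-coding gene whose symbol begins with RPL or RPS and a digit, together with RPLP0, RPLP1, RPLP2 and RPSA. Pseudogenes, the RPS6K kinases and RPS19BP1 were left out. The rule found 90 of the 60675 genes in the table. Of the 90, 77 encode the standard proteins of the ribosome and are called core genes here, with 43 of the large subunit, 3 of its stalk and 31 of the small subunit. Another 8 are close copies of core genes (RPL3L, RPL7L1, RPL10L, RPL22L1, RPL26L1, RPL36AL, RPL39L and RPS27L), 3 are readthrough genes that join a ribosomal protein gene to its neighbour, and 2 are Y-linked copies, for which no level is given. After the filter on low counts 86 of the 90 were tested, with all 77 core genes among them. RPL3L, RPL10L and RPL36A-HNRNPH2 were among the 4 that did not pass.

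RNA was sequenced from SW1783 cells, an established human astrocytoma line, 24 h after addition of a water extract at 20 µg/mL (low), 100 µg/mL (medium) or 500 µg/mL (high), or of a vehicle. The extracts with 3 libraries at each dose were Citri Unshius Pericarpium (mandarin peel), Cimicifugae Rhizoma (rhizome of Cimicifuga), Bupleuri Radix (root of Bupleurum), Aconiti Lateralis Radix Preparata (aconite root, processed), and Yijung-tang and Banhasasim-tang, which are formulas of several herbs; the 4 single herbs are called by their first word below. A further formula, Bojungikgi-tang, had 1 library at each dose and entered no test. The vehicle, also with 3 libraries, was 0.1% DMSO in its labels and 2% in the design text, and no DMSO content is given for the extracts, so the solvent and the extract cannot be told apart in a comparison with the vehicle. All titles name batch B and a second sequencing. The sample codes fall into sets whose meaning is not given, with the vehicle in B1, Citri and Cimicifugae in 5, Bupleuri and Aconiti in 6, Yijung-tang and Banhasasim-tang in 7 and Bojungikgi-tang in 8, so in a comparison with the vehicle the set and the treatment cannot be told apart either. A comparison of the high with the low dose of an extract stays within a set. Nothing in the labels says that the 3 libraries of a group came from separate cultures, so the p-values measure the spread between these libraries, which may be technical. The cells had much mRNA of VIM (3534 to 4975 CPM, counts scaled to a common library size) and CD44 (1975 to 3141 CPM). The astrocyte markers GFAP, S100B, AQP4, ALDH1L1 and SLC1A2 reached at most 0.261, 0.418, 0.0909, 0.0877 and 0.637 CPM in any of the 60 libraries. SLC1A3 and NES of the same list had 5.58 to 42.1 and 2.74 to 11.8 CPM. Markers of other cell types were also present, such as COL1A1 of fibroblasts (736 to 3708 CPM).

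The ribosomal proteins are needed in nearly equal amounts, and making ribosomes takes a large part of the energy of a growing cell. Their mRNAs mostly begin with a cytosine followed by a run of pyrimidines, the 5′ terminal oligopyrimidine or TOP motif, through which the kinase mTORC1 and the RNA-binding protein LARP1 control their translation and stability as a group. Several ribosomal proteins also have other known roles, such as RPL5 and RPL11, which bind the p53 regulator MDM2 when ribosome assembly is disturbed.

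The bases around the annotated transcription start are printed for the genes that the results turn on, since the run of pyrimidines is what most core genes share there. Sequences and starts are from RefSeq on GRCh38.p14, each covers 15 bases before the start and 15 from the start on, on the strand of the gene, and capitals mark the longest run of C and T where it reached 8 bases.
RPS26 at chr12:56041903-56041932, plus strand: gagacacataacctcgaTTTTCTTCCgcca
RPL3 at chr22:39319609-39319638, minus strand: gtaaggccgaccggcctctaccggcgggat
RPL10A at chr6:35468386-35468415, plus strand: tgcgcaagacatgctagTCTCTTTTCCggt
RPL12 at chr9:127451392-127451421, minus strand: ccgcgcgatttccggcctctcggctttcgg
RPL22 at chr1:6199581-6199610, minus strand: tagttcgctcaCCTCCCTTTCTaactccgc
RPL22L1 at chr3:170870181-170870210, minus strand: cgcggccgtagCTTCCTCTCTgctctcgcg
RPL7L1 at chr6:42879601-42879630, plus strand: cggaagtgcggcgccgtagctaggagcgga
RPS27A at chr2:55232673-55232702, plus strand: tgcgcggcgTTCTTCCTTTTCgatccgcca
RPL9 at chr4:39458908-39458937, minus strand: gtacgtaatgacgacagacgTTCTTTCTTT
RPS21 at chr20:62387088-62387117, plus strand: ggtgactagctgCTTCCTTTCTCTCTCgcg
RPS28 at chr19:8321481-8321510, plus strand: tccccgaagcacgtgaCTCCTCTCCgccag

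A run of at least 8 pyrimidines on the strand of the gene was found in 51 of the 62 core genes with a RefSeq start (82.3%). It was found in 2 of 6 copies and in 16.5% of all 27305 genes with a RefSeq start, which were not limited to the count table. On the opposite strand, 0 of the 62 core genes and 13.5% of all genes had one. Where RefSeq gave several starts, the one with the longest run on the strand of the gene was taken, for core and all genes alike. Opposite-strand runs of core genes were counted only at that start, and a window chosen for pyrimidines leaves less room for them. For all genes they were counted at any start, so the 0 and the 13.5% were not measured alike. The longest run in these windows was 15 bases in RPS21, 12 in RPS27A, 11 in RPL22, 10 in RPL22L1, RPL10A and RPL9, 9 in RPS26 and RPS28, 6 in RPL12, 5 in RPL3 and 2 in RPL7L1. That of RPL9 reached the end of its window and may be longer. The windows show letters at annotated starts, and which start the cells used was not measured.

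The core genes together took 3.10% to 3.95% of the counts of a library. The share was 3.72% ± 0.0902 in the high dose of Aconiti (SD, n = 3), 3.65% ± 0.0303 in the high dose of Citri, 3.73% ± 0.0188 in the high dose of Bupleuri and 3.77% ± 0.0324 in the vehicle. The lowest shares were 3.10% in the third high-dose library of Cimicifugae and 3.18% in the third low-dose library of Citri, while the other 58 libraries lay between 3.51% and 3.95%. The denominator moved as well in the Aconiti groups, where mitochondrially encoded genes took 5.14% ± 0.134 of the counts in the vehicle, 6.96% ± 0.559 at the low dose, 10.7% ± 0.161 at the medium dose and 9.19% ± 0.169 at the high dose. With the mitochondrial counts left out of the denominator, the core share in the high dose of Aconiti was 103% of that in the vehicle, and 98.7% with them in. In bulk RNA, fewer cells and less RNA per cell cannot be told apart, and every level below is relative to the other genes of the library.

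**Figure D1:**
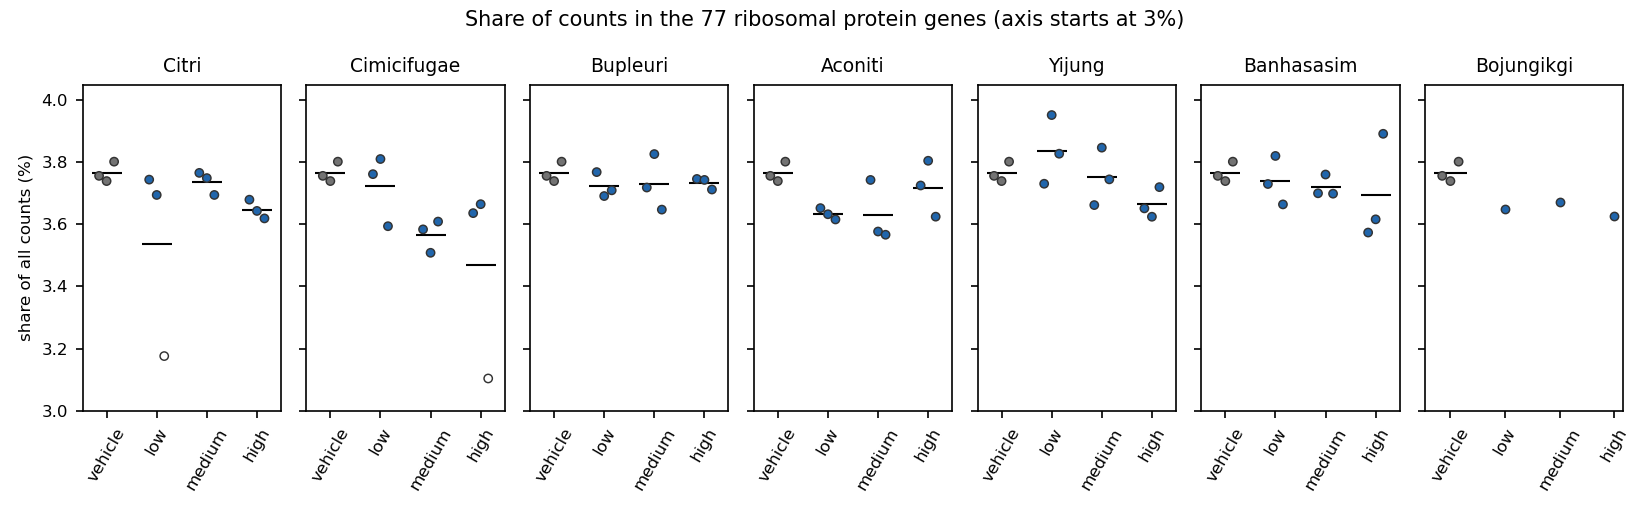
Share of all counts in a library taken by the 77 core ribosomal protein genes, in percent on an axis that starts at 3%, with a panel for each extract and the vehicle in grey; dots are libraries, bars are means, and open circles mark the 2 libraries that stood apart. The third high-dose library of Cimicifugae (3.10%) and the third low-dose library of Citri (3.18%) lie below all others, which run between 3.51% and 3.95%.

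These 2 libraries stood apart from the others of their groups in a similar pattern across genes. On the log2 scale, the core genes of the third high-dose Cimicifugae library were a median of -0.22 from the mean of the other 2 libraries of its group, and those of the third low-dose Citri library were a median of -0.22 from theirs, while the medians over 11281 genes with a mean of at least 5 CPM were -0.01 in both. The 2 libraries departed together beyond the core genes as well: over the 11281 genes their deviations had a Pearson r of 0.82. Mitochondrially encoded genes took 7.69% of the counts in the Cimicifugae library and 7.37% in the Citri library, against 5.08% to 5.97% in the other libraries of these 2 extracts, and the part of this in the drop was not tested. RPS12 (-1.21 in the Cimicifugae library and -1.12 in the Citri library), RPS21 (-1.11 and -1.12), RPS27A (-1.08 and -1.10), RPL39 (-1.08 and -0.90) and RPS29 (-1.04 and -1.32) were the lowest, and RPL28 (0.26 and 0.26) was among the highest. Across the 77 core genes the 2 sets of deviations had a Pearson r of 0.97 and a Spearman rho of 0.96, given as a description since the genes share a library, and 63 of the 77 were lower in both. For the third libraries at the low dose of Cimicifugae and the medium dose of Citri, which did not stand apart, r was 0.20. RPS27A, which encodes ubiquitin fused to a ribosomal protein, shows the size of the gap: it had 295, 318 and 145 CPM in the high-dose Cimicifugae libraries and 336, 352 and 160.4 CPM in the low-dose Citri libraries, against 349.9, 342 and 332 CPM in the vehicle. RPS21 had 185, 188 and 85.7 CPM and 204, 198 and 92.1 CPM in the same 2 groups and 203, 195 and 197 CPM in the vehicle. For both genes the third library was far below the other 2 of its group, and the other 2 high-dose Cimicifugae libraries were also below all vehicle libraries. Results on these extracts are therefore given with and without the 2 libraries.

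**Figure D2:**
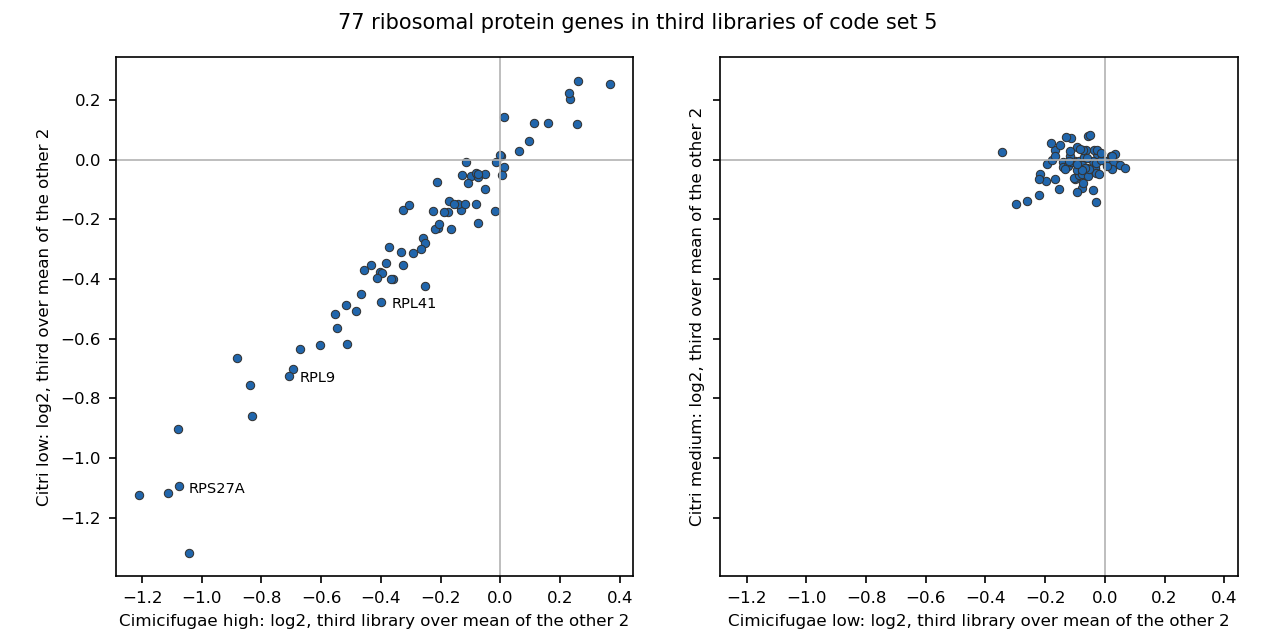
Each point is a core ribosomal protein gene, placed by the log2 ratio of the third library of a group to the mean of the other 2; the left panel sets the high dose of Cimicifugae against the low dose of Citri, the right panel the low dose of Cimicifugae against the medium dose of Citri. The points of the left panel run along the diagonal (r = 0.97 across genes) with RPS27A near -1.1 on both axes, and those of the right panel do not (r = 0.20).

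With each dose of 6 extracts set against the vehicle, the calls among the core genes were falls with Cimicifugae and Citri, rises other than RPS26 with Aconiti, and both rises and falls with Yijung-tang and Banhasasim-tang, while Bupleuri gave none. The medium dose of Citri and the low doses of Cimicifugae and Aconiti gave none either. Calls are at an adjusted p under 0.05 in the quasi-likelihood test of edgeR, adjusted by Benjamini-Hochberg over all 17190 genes tested. The median of all genes tested lay between -0.0044 and 0.011 on the log2 scale over the 27 comparisons.

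**Figure D3:**
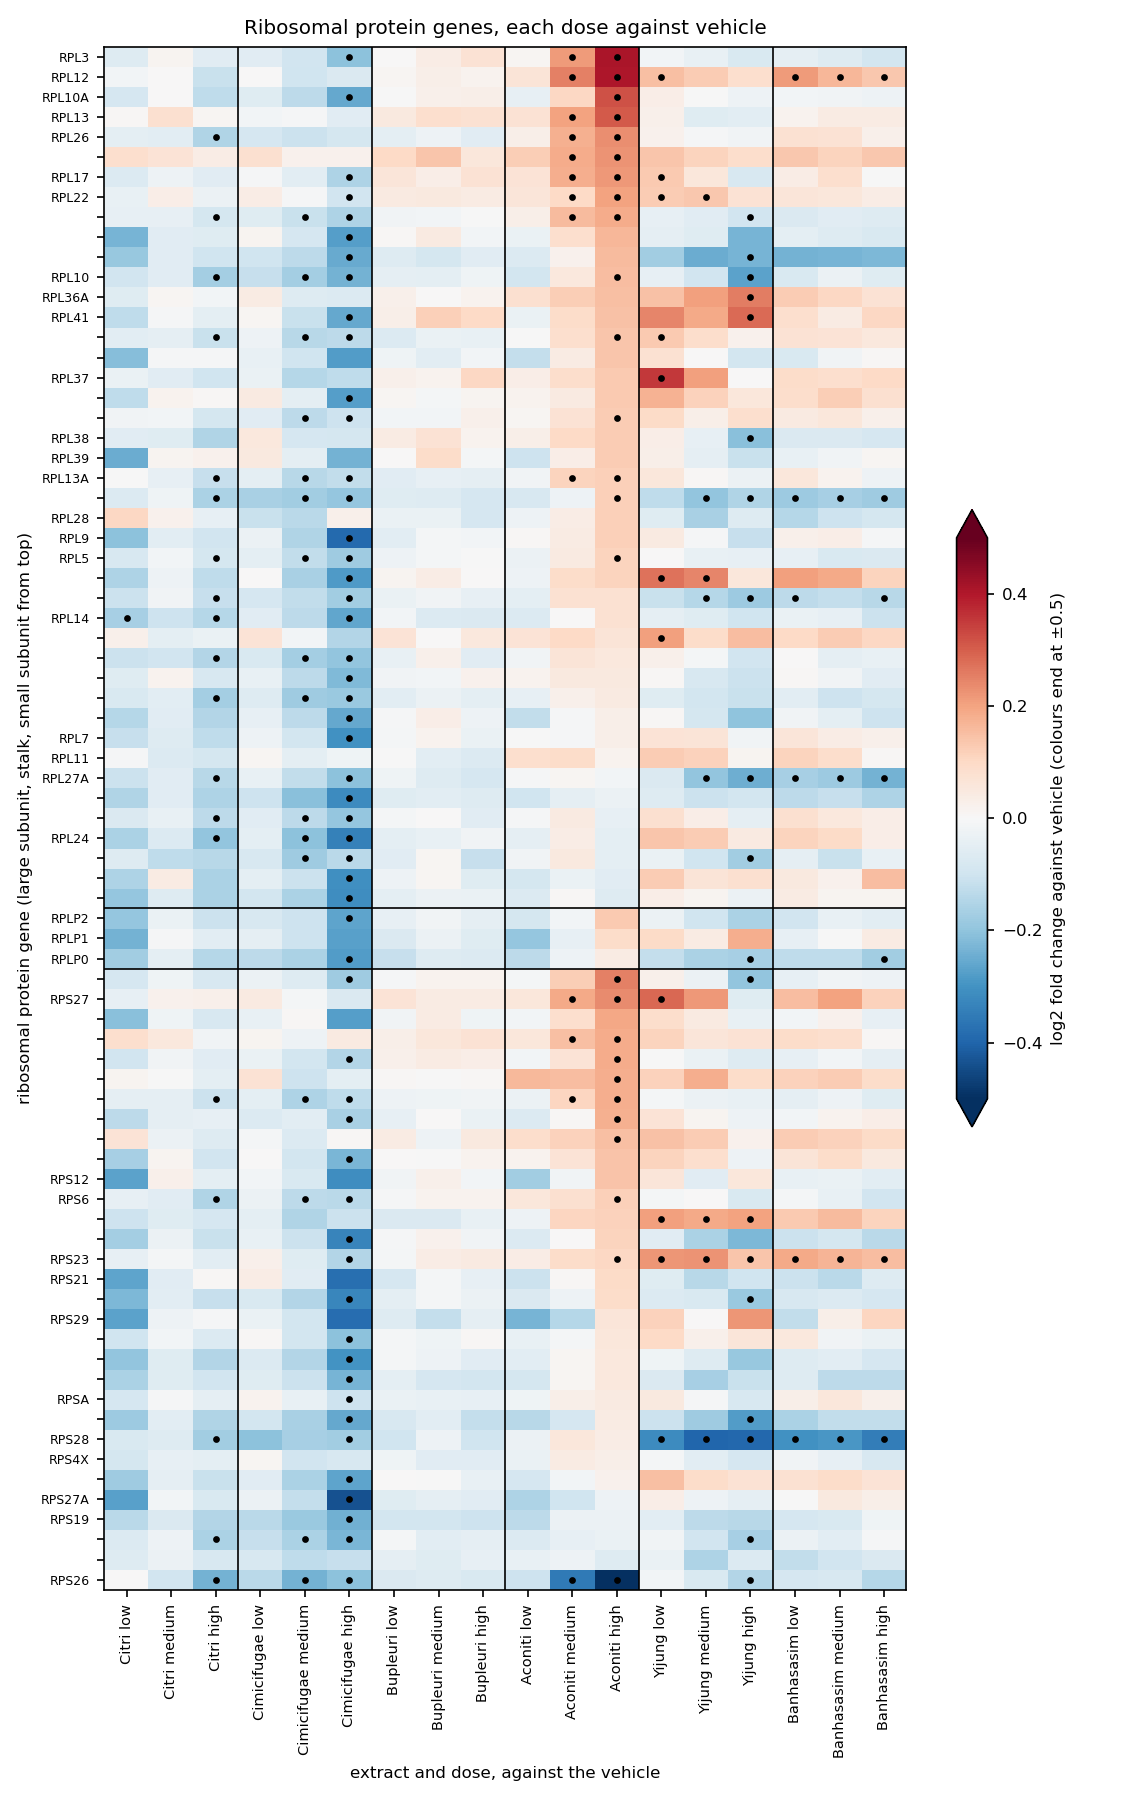
Log2 difference of each of the 77 core ribosomal protein genes (rows, grouped as large subunit, stalk and small subunit, ordered by the high dose of Aconiti, with names for the genes the text describes) at each dose of 6 extracts against the vehicle (columns); colours end at ±0.5 and a dot marks an adjusted p under 0.05. The high-dose column of Cimicifugae holds 53 falls, that of Aconiti 25 rises and 1 fall, and the columns of Bupleuri hold none.

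At the high dose of Aconiti 25 core genes rose and 1 fell against the vehicle. RPL3, a core protein near the catalytic centre of the large subunit, RPL12 and RPL10A rose most among core genes, and RPS26, a protein of the small subunit near the mRNA exit, fell. The 25 rises were 32.5% of the 77 core genes, where 31.5% of all genes rose. The 1 fall was 1.299% of the core genes, where 28.9% of all genes fell. The median core gene stood at 0.11 log2 above the vehicle and 65 of the 77 had a positive value. Rises were called for 15 genes of the large subunit and 10 of the small subunit and for 0 of 3 stalk genes. Without the 2 libraries that stood apart, which belong to other groups but enter the shared spread and the filter on low counts, 33 rose (42.9%) and 1 fell, where 31.3% of all genes rose and 30.3% fell.

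RPS26 had 177, 166 and 184 CPM in the vehicle and 174, 155 and 161 CPM in the low-dose, 132, 137 and 143 CPM in the medium-dose and 101, 96.9 and 107 CPM in the high-dose libraries of Aconiti. Every high-dose library lay below every medium-dose library, and every medium-dose library below every low-dose and vehicle library. The log2 difference from the vehicle was -0.79 ± 0.0585 (adjusted p = 1.01e-16) at the high dose (± SE) and -0.35 ± 0.0573 (adjusted p = 2.31e-06) at the medium dose. Against the low dose, the high dose stood at -0.69 ± 0.0587 (adjusted p = 1.82e-14).

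RPL3 had 584, 564 and 581 CPM in the vehicle and 573, 588 and 579 CPM at the low, 665, 679.7 and 657 CPM at the medium and 757, 776 and 764 CPM at the high dose of Aconiti. Every high-dose library lay above every medium-dose one, and every medium-dose one above those of the low dose and the vehicle, which overlapped. RPL3 rose by 0.41 ± 0.0467 (adjusted p = 1.07e-10) against the vehicle and by 0.40 ± 0.0467 (adjusted p = 2.20e-10) against the low dose, in log2 units. RPL12, which with the stalk forms the landing site of translation factors, had 475, 452 and 449.9 CPM in the vehicle and 461, 472 and 507 CPM, 536, 530.2 and 570.0 CPM and 609.6, 614 and 598 CPM at the low, medium and high dose. Its high-dose libraries lay above all medium-dose ones, with a log2 difference of 0.40 ± 0.0438 (adjusted p = 2.43e-11) from the vehicle. RPL10A had 268, 266 and 275 CPM in the vehicle and 270.4, 269 and 248 CPM, 292, 293 and 284 CPM and 330.0, 348 and 330.2 CPM at the 3 doses. It rose by 0.36 ± 0.0529 (adjusted p = 8.65e-08) against the low dose.

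Of the 6 copies tested, 3 were called at the high dose of Aconiti, 2 as higher and 1 as lower. RPL22L1, a copy of RPL22 that is known to take part in RNA splicing as well, had 19.6, 19.3 and 18.96 CPM in the vehicle and 16.5, 16.8 and 16.6 CPM at the low, 20.0, 16.9 and 19.001 CPM at the medium and 25.5, 29.6 and 24.4 CPM at the high dose of Aconiti. The 3 high-dose libraries were above all others of the extract and above the vehicle, at 0.46 ± 0.0849 (adjusted p = 6.44e-06) log2 against the vehicle and 0.67 ± 0.0872 (adjusted p = 3.45e-09) against the low dose. RPL22 itself had 299.7, 311 and 303 CPM at the high dose and 265, 270.1 and 259.9 CPM in the vehicle, a rise of 0.20 ± 0.0355 (adjusted p = 3.02e-06). RPL7L1, a copy of RPL7, fell instead: it had 250.4, 240.3 and 242 CPM in the vehicle, 232, 245 and 239.6 CPM at the low dose and 210.1, 204 and 199.7 CPM at the high dose, at -0.26 ± 0.0486 (adjusted p = 9.69e-06) against the vehicle. RPL39L, a copy of RPL39, rose by 0.26 ± 0.0997 (adjusted p = 0.0233). The readthrough gene RPS10-NUDT3 was also called, at 1.09, 2.82 and 3.94 CPM in the high dose and 0, 0 and 0.153 CPM in the vehicle, and since it shares its reads with RPS10 its level is uncertain.

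**Figure D4:**
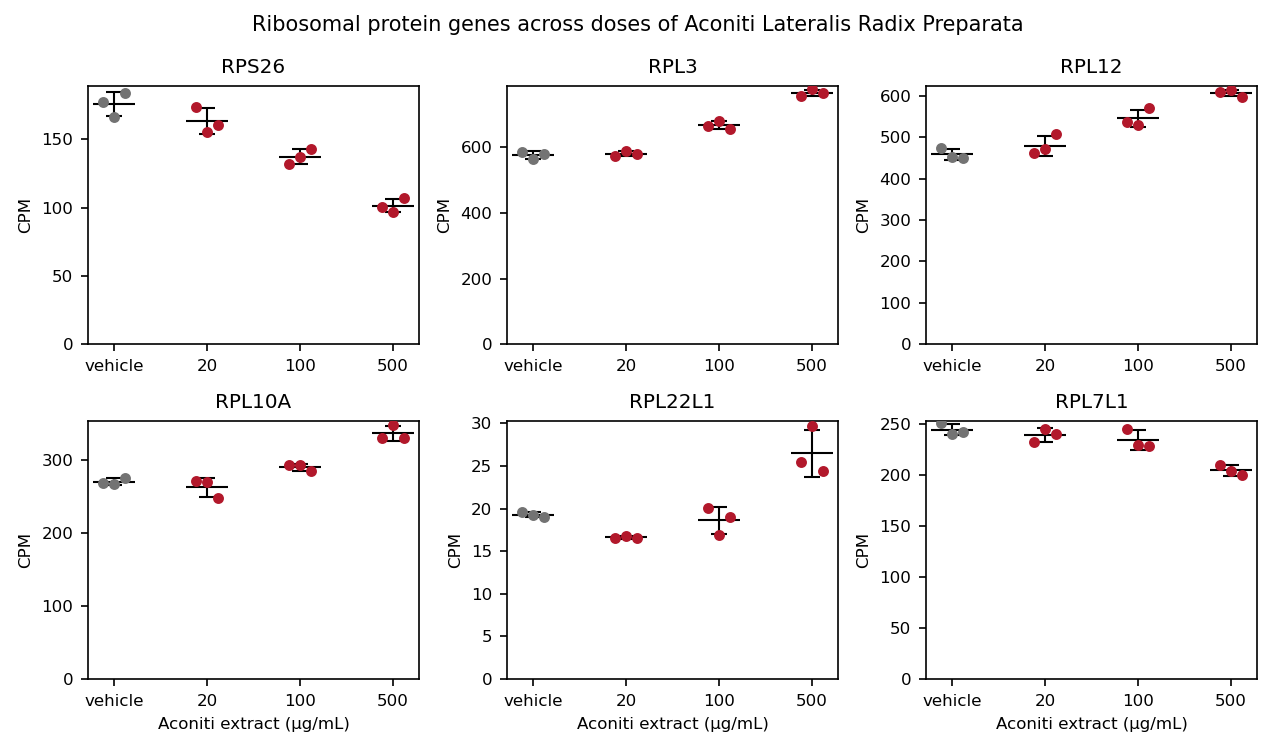
CPM of 6 ribosomal protein genes in the vehicle and at 20, 100 and 500 µg/mL of Aconiti; points are libraries, and bars are the mean ± SD of 3 libraries. RPS26 and RPL7L1 are lowest at 500 µg/mL, and RPL3, RPL12, RPL10A and RPL22L1 are highest there, with RPS26 at 101, 96.9 and 107 CPM against 177, 166 and 184 CPM in the vehicle.

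The other rises at the high dose of Aconiti were smaller, between 0.10 for RPS23 and 0.31 for RPL13 on the log2 scale. They included RPL5 (0.11, adjusted p = 0.00194), RPS6, the classical substrate of the S6 kinases (0.12, adjusted p = 0.00850), and RPS27 (0.24, adjusted p = 0.00540). RPL5 had 662, 705 and 655 CPM at the high dose and 629, 610.1 and 630.2 CPM in the vehicle, and RPS6 had 1011, 959 and 1042 CPM and 915, 917 and 939.5 CPM. These small rises depend on the scaling: with library totals in place of TMM factors, which moves the median of all genes by -0.12 log2, the calls were 4 rises and 10 falls, and the values of RPL5 and RPS6 were -0.02 and -0.01 with no call. RPL11 (a partner of RPL5 in binding MDM2) had 559, 565 and 573 CPM at the high dose and 541, 561 and 576 CPM in the vehicle, and was not called in any comparison.

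At the medium dose of Aconiti 12 core genes rose and 1 (RPS26) fell, where 16.1% of all genes rose and 15.0% fell. With library totals in place of TMM factors the calls were 1 rise and 7 falls. The count of calls was 8 without the first medium-dose or the first vehicle library. RPL3 stood at 0.21 (adjusted p = 0.000348) and RPL12 at 0.25 (adjusted p = 1.01e-05). At the low dose 0 of the 77 were called by edgeR and 0 by DESeq2, 3 had an unadjusted p under 0.05, and 1.15% of all genes rose and 1.04% fell. Between the high and the low dose, within the code set, 28 core genes rose and 1 fell, where 30.4% of all genes rose and 27.4% fell. The median core gene stood at 0.14 log2, with 69 of 77 positive, and the calls took in 18 genes of the large subunit, RPLP0 of the stalk (0.17, adjusted p = 0.00910) and 9 rises and 1 fall of the small subunit. With library totals they were 7 rises and 6 falls.

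Bupleuri, whose libraries share the code set of Aconiti, gave 0 calls among the 77 core genes at any dose and 0 between its high and low dose. By DESeq2 the counts were also 0. An unadjusted p under 0.05 was found for 0 core genes at the low dose, 1 at the medium dose and 1 at the high dose against the vehicle, and for 0 between the high and low dose. At the high dose, 3.01% of all genes rose and 4.01% fell, and the core genes lay between -0.12 and 0.10 log2 with a median of -0.02. At the medium dose 0.204% of all genes rose and 0.209% fell, at the low dose 0.0175% and 0.0582%, and between high and low dose 1.92% and 2.45%. RPS26 had 166, 168 and 165 CPM at the high dose of Bupleuri and 171, 161 and 169.8 CPM at its low dose.

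The change between low and high dose differed between Aconiti and Bupleuri for 16 core genes, with 15 more positive and 1 more negative with Aconiti, where 22.9% of all genes differed upwards and 21.1% downwards. Without the third high-dose Bupleuri library 9 differed, and with library totals 4. The difference of the log2 changes was -0.68 ± 0.0813 (adjusted p = 9.04e-10) for RPS26 and 0.33 ± 0.0660 (adjusted p = 3.90e-05) for RPL3. It was 0.33 ± 0.0619 (adjusted p = 1.30e-05) for RPL12 and 0.32 ± 0.0747 (adjusted p = 0.000315) for RPL10A. Of the copies, RPL22L1 (0.63 ± 0.124, adjusted p = 2.99e-05) and RPL7L1 (-0.25 ± 0.0683, adjusted p = 0.00203) differed in opposite directions.

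With Cimicifugae, 53 of the 77 core genes fell at the high dose against the vehicle and 0 rose. The falls were 68.8% of the core genes, where 17.5% of all genes fell and 15.1% rose. They were spread over 31 of 43 genes of the large subunit, 2 of 3 of the stalk and 20 of 31 of the small subunit, with a median of -0.20 log2 over the core genes and 73 of 77 negative. Without the 2 libraries that stood apart, 35 core genes fell and 0 rose, with a median of -0.12, where 14.6% of all genes fell. With only the third high-dose library left out, 25 fell. The medium dose, whose libraries did not stand apart, gave 16 falls (12 of the large and 4 of the small subunit) with a median of -0.11, where 3.92% of all genes fell and 2.72% rose, and 28 falls without the 2 libraries, where 4.97% of all genes fell. With library totals in place of TMM factors 2 fell at the medium and 30 at the high dose, and with only the compared groups fitted 52 and 18 did. The count of 16 rested on single libraries: it was 0, 8 and 10 without the second, the third and the first medium-dose library, and 6 and 4 without the first and the third vehicle library. At the low dose 0 core genes were called by edgeR, 1 by DESeq2, and 8 had an unadjusted p under 0.05, where 0.372% of all genes rose and 0.902% fell. Without the 2 libraries 1 was called, where 0.705% of all genes rose and 1.23% fell.

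RPL22L1 had the largest difference among the genes of the set called at the high dose of Cimicifugae, in the direction opposite to Aconiti. It had 19.6, 19.3 and 18.96 CPM in the vehicle and 18.6, 18.4 and 17.03 CPM at the low, 15.9, 13.96 and 17.4 CPM at the medium and 14.3, 14.4 and 10.4 CPM at the high dose. All high-dose libraries lay below all low-dose and vehicle libraries. The fall against the vehicle was -0.57 ± 0.0913 (adjusted p = 2.51e-06), and without the 2 libraries that stood apart it was -0.43 (adjusted p = 0.000100). RPL24 had 178, 178 and 183 CPM in the vehicle, 178, 176 and 167 CPM at the low dose and 153, 151 and 123 CPM at the high dose. Its value was -0.34 (adjusted p = 6.64e-06) with all libraries and -0.24 (adjusted p = 0.000346) without the 2. RPL5 had 554, 567 and 532 CPM at the high dose and 629, 610.1 and 630.2 CPM in the vehicle, and stood at -0.18 ± 0.0318 (adjusted p = 1.59e-05) with all libraries and at -0.15 (adjusted p = 0.000404) without the 2. RPL3 was at -0.20 (adjusted p = 0.000532) and at -0.15 (adjusted p = 0.00913) without them, and RPS6 at -0.14 (adjusted p = 0.00689) and -0.14 (adjusted p = 0.00872). The falls of these 5 genes were called with and without the 2 libraries.

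Other falls at this dose were no longer called without the 2 libraries, or, for RPL9, were smaller. RPS27A stood at -0.44 ± 0.154 (adjusted p = 0.0244) against the vehicle with all libraries and at -0.15 (adjusted p = 0.0825) without the 2. RPL9, at 335, 346 and 208 CPM in the high dose and 408, 378 and 376 CPM in the vehicle, stood at -0.39 ± 0.107 (adjusted p = 0.00401) with all libraries and at -0.19 (adjusted p = 0.00834) without them, so its call remained at a smaller size. RPLP2 of the stalk stood at -0.26 (adjusted p = 0.0350) with all libraries and at -0.07 (adjusted p = 0.350) without the 2. RPS19, in which mutations cause Diamond-Blackfan anaemia, had 336, 333 and 259.6 CPM at the high dose and 368, 352 and 379 CPM in the vehicle, and it stood at -0.24 (adjusted p = 0.0158) with all libraries and at -0.13 (adjusted p = 0.160) without the 2. RPSA, also known as a laminin receptor, stood at -0.10 (adjusted p = 0.0120) with all libraries and at -0.06 (adjusted p = 0.118) without the 2, and RPL22 at -0.09 (adjusted p = 0.0348) and -0.06 (adjusted p = 0.241).

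Among the copies, RPL26L1 (-0.33, adjusted p = 0.000483), RPL7L1 (-0.24, adjusted p = 0.000115) and RPS27L (-0.25, adjusted p = 0.0299) fell with RPL22L1 at the high dose of Cimicifugae. Leaving the 2 libraries out, RPL26L1 stood at -0.21 (adjusted p = 0.0179), RPL7L1 at -0.14 (adjusted p = 0.000927) and RPS27L at -0.12 (adjusted p = 0.282). RPS27L, a p53 target, had 60.8, 67.7 and 48.3 CPM at the high dose and 72.6, 64.6 and 72.4 CPM in the vehicle, and was called with all libraries only.

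Between the high and the low dose of Cimicifugae 33 core genes fell (22 of the large and 11 of the small subunit) and 0 rose, where 13.5% of all genes fell and 11.7% rose. When the 2 libraries were left out 16 fell, with a median of -0.08 in place of -0.15, where 11.1% of all genes fell. Without the third high-dose library alone 9 fell, and without the first or second low-dose library 20 or 19. With library totals 19 fell and 1 rose. RPL22L1 stood at -0.47 ± 0.0915 (adjusted p = 9.93e-05) with all libraries and -0.33 (adjusted p = 0.00315) without the 2.

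With Citri, 19 core genes fell at the high dose and 0 rose, where 11.8% of all genes fell and 9.82% rose. The falls took in 14 genes of the large and 5 of the small subunit, at a median of -0.10 log2 over the core genes. None of the 3 high-dose libraries stood apart, and without the 2 that did, 29 fell, where 13.05% of all genes fell. With library totals in place of TMM factors 1 fell, and with only the compared groups fitted 45 did. With 1 library left out, the count was 5 without the second and 11 without the third high-dose library, and 9 without the first or the third vehicle library. RPS26 had 177, 166 and 184 CPM in the vehicle and 170.4, 171 and 186 CPM at the low, 172, 155 and 167 CPM at the medium and 147, 142 and 159 CPM at the high dose. Every high-dose library was below every vehicle and low-dose library, at -0.23 ± 0.0566 (adjusted p = 0.00165) against the vehicle. RPL24, with 157, 158 and 156 CPM at the high dose and 178, 178 and 183 CPM in the vehicle, stood at -0.20 ± 0.0573 (adjusted p = 0.00934). RPL22L1, with 15.3, 15.3 and 16.7 CPM at the high dose, stood at -0.29 ± 0.0893 (adjusted p = 0.0155) against the vehicle, while its low-dose libraries, at 15.5, 17.9 and 13.5 CPM, overlapped with the high-dose ones.

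At the medium dose of Citri 0 core genes were called by edgeR and 0 by DESeq2, 2 had an unadjusted p under 0.05, and 0.838% of all genes rose and 1.23% fell. At the low dose 1 core gene, RPL14, was called as lower, where 0.721% of all genes fell and 1.16% rose. Without the 2 libraries 0 were called, where 0.241% of all genes fell and 0.459% rose. Between the high and low dose 3 core genes fell, RPS26 (-0.24, adjusted p = 0.00191), RPL13A (-0.11, adjusted p = 0.0223) and RPS6 (-0.11, adjusted p = 0.0488), where 10.0% of all genes fell and 8.19% rose. The 3 falls were 3.90% of the core genes. With the 2 libraries left out, 5 fell (6.49%), where 7.63% of all genes fell and 5.56% rose. The share of falls thus lay below that of all genes with and without the 2 libraries. Without them, RPS26 stood at -0.20 (adjusted p = 0.00905) and RPS6 at -0.06 (adjusted p = 0.347). The copy RPL39L, at 10.9, 10.9 and 10.6 CPM in the high and 9.53, 9.95 and 6.94 CPM in the low dose, was called as higher (0.29, adjusted p = 0.0340) with all libraries, and stood at 0.15 (adjusted p = 0.341) without the 2.

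The changes between low and high dose differed between Citri and Cimicifugae for 12 core genes, 11 upwards and 1 downwards, where 5.54% of all genes differed upwards and 5.58% downwards. Each of the 2 libraries that stood apart enters this difference, in the low dose of one extract and the high dose of the other. Without them 0 core genes differed at the adjusted threshold in edgeR, with 4 at an unadjusted p under 0.05. Of all genes, 1.40% then differed upwards and 1.05% downwards, so the calls fell over all genes and not only among core genes. With any 1 of the 12 libraries left out, the count lay between 1 and 33, and it was 1 without either of the 2. RPL9 stood at 0.47 (adjusted p = 0.0357) with all libraries and at 0.07 (adjusted p = 0.777) without the 2. RPL22L1 stood at 0.48 (adjusted p = 0.0105) and at 0.25 (adjusted p = 0.325) without them.

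With Yijung-tang 15 core genes fell and 4 rose at the high dose against the vehicle, where 16.7% of all genes fell and 15.3% rose. With all libraries the falls were 19.5% of the core genes, a share near that of all genes, and the rises 5.19%. Without the first high-dose library 12 of the 77 were called. With Banhasasim-tang 5 fell and 2 rose at the high dose, where 8.82% of all genes fell and 7.99% rose. RPS28, RPL27A and RPS23 were among the genes called with both formulas, which share the vehicle and a code set, so their values are given side by side. Without the 2 libraries that stood apart, which belong to other groups, 23 core genes fell (29.9%) and 6 rose (7.79%) with Yijung-tang. Of all genes, 18.1% fell and 16.7% rose in that fit, so the share of falls was then above that of all genes. With Banhasasim-tang 11 core genes fell (14.3%) and 2 rose (2.60%) without the 2 libraries, where 10.3% of all genes fell and 9.59% rose. With 1 library of the compared groups left out the count for Banhasasim-tang was 4 to 9. RPS28, a small-subunit protein at the mRNA exit next to RPS26, had 229, 219.6 and 248 CPM in the vehicle and 181, 197 and 182 CPM at the low, 159, 195 and 176 CPM at the medium and 176, 171 and 184 CPM at the high dose of Yijung-tang. It had 184, 207 and 174 CPM, 196, 196 and 178 CPM and 179, 183 and 186 CPM at the low, medium and high dose of Banhasasim-tang. All 18 libraries were below the vehicle, and the levels at 20 and 500 µg/mL overlapped within each formula. The difference from the vehicle was -0.39 ± 0.0611 (adjusted p = 1.47e-06) at the high dose of Yijung-tang and -0.35 ± 0.0605 (adjusted p = 2.47e-05) at that of Banhasasim-tang. At the low doses it was -0.31 and -0.30, and the Bojungikgi-tang libraries, in another code set, had 195, 186 and 182 CPM at the low, medium and high dose.

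RPL27A had 405, 391 and 399.6 CPM at the high dose of Yijung-tang, 386, 397 and 419.9 CPM at that of Banhasasim-tang and 477, 457 and 483 CPM in the vehicle. Its fall was -0.24 (adjusted p = 1.31e-05) with Yijung-tang and -0.24 ± 0.0427 (adjusted p = 4.51e-05) with Banhasasim-tang. RPS23, a protein of the decoding centre, was higher with both: it had 536, 543 and 504 CPM at the high dose of Yijung-tang, 548, 511 and 541 CPM at that of Banhasasim-tang and 471, 481 and 487 CPM in the vehicle. Its rise was 0.14 (adjusted p = 0.00947) and 0.15 ± 0.0418 (adjusted p = 0.00721), and at the low doses it stood at 0.22 and 0.19. With Banhasasim-tang RPL12 rose by 0.14 ± 0.0437 (adjusted p = 0.0248) and the copy RPL36AL by 0.14 ± 0.0472 (adjusted p = 0.0326). None of these genes was called between the high and low dose of Banhasasim-tang, which with 3 libraries a group does not show that dose had no part. Against the vehicle, the code set and the treatments cannot be told apart. In the Bojungikgi-tang libraries, of another code set, RPL27A had 397 to 415 CPM and RPS23 533 to 556 CPM.

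Another call at the high dose of Yijung-tang was RPL10 (-0.27 ± 0.0471, adjusted p = 1.28e-05), a late-joining protein of the large subunit, which had 998, 1020.0 and 1004 CPM there and 1225, 1197 and 1221 CPM in the vehicle. RPL41 rose by 0.28 ± 0.0835 (adjusted p = 0.00717) and RPL36A by 0.25 ± 0.0700 (adjusted p = 0.00402). Both had a wider spread at the high dose, with RPL41 at 656, 552 and 581 CPM against 478, 482 and 510.2 CPM in the vehicle. RPL36A shares reads with pseudogenes, which held 14.6% of the counts of its family, the largest share among the genes of the naming rule.

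At the medium dose of Yijung-tang 4 core genes rose and 4 fell, where 2.73% of all genes rose and 3.55% fell. At the low dose 10 rose and 1 (RPS28) fell, where 2.72% and 3.65% of all genes did. RPL37 led the rises, at 0.35 ± 0.0711 (adjusted p = 0.00119). With 1 library left out, 4 or 5 were called at the medium dose and 3 to 9 at the low dose, with the 3 found without the second low-dose library. Banhasasim-tang gave 2 rises and 3 falls at the medium dose, where 3.8% of all genes rose and 4.52% fell, and 2 rises and 4 falls at the low dose, where 2.62% rose and 3.14% fell.

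The dose comparison of Yijung-tang, within its code set, gave 13 falls (9 of the large and 4 of the small subunit) and 0 rises at the high against the low dose, where 11.5% of all genes fell and 10.2% rose. The median core gene stood at -0.08 log2 and 73 of 77 were negative, and 8 were called without the second low-dose library. Without the 2 libraries that stood apart 29 fell (37.7%) and 0 rose, where 13.9% of all genes fell and 11.4% rose. RPL37 had 408, 437 and 460.0 CPM in the vehicle and 567, 553 and 547 CPM at the low, 461, 554 and 491 CPM at the medium and 444, 473 and 389 CPM at the high dose. The high-dose and low-dose libraries did not overlap, at -0.35 ± 0.0710 (adjusted p = 0.000184), while the high-dose libraries overlapped with the vehicle. RPS27, at 409.7, 432 and 444 CPM, 386, 429 and 411 CPM and 364, 373 and 274 CPM at the low, medium and high dose, stood at -0.35 ± 0.0742 (adjusted p = 0.000420), and RPL38 at -0.24 ± 0.0751 (adjusted p = 0.0144). RPL10 (-0.23, adjusted p = 0.000237) and RPSA (-0.13, adjusted p = 0.00268) fell too. Banhasasim-tang gave 0 calls between high and low dose in edgeR and 0 in DESeq2, with 2 genes at an unadjusted p under 0.05, where 3.08% of all genes rose and 3.58% fell. The 2 formulas differed in this change for 3 core genes, RPL37 (-0.36 ± 0.100, adjusted p = 0.0149), RPL10 (-0.24 ± 0.0664, adjusted p = 0.0114) and RPL17 (-0.17, adjusted p = 0.0345), all more negative with Yijung-tang, where 5.53% of all genes differed downwards and 4.54% upwards. RPL17 is named after its value was seen, as are RPL13, RPL14, RPL28, RPS10-NUDT3, RPS12, RPS21 and RPS29 above.

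**Figure D5:**
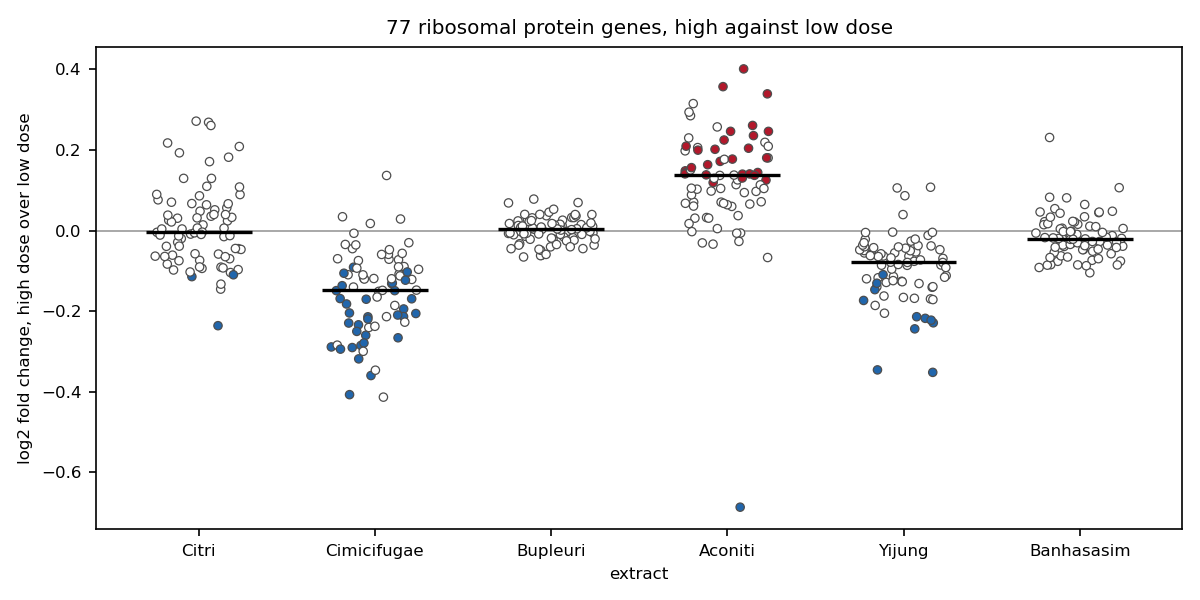
Log2 difference of the high over the low dose for each of the 77 core ribosomal protein genes, by extract. Filled red and blue points rose and fell at an adjusted p under 0.05, open points were not called, and bars are medians. The medians are 0.14 for Aconiti, -0.15 for Cimicifugae, -0.08 for Yijung-tang, -0.021 for Banhasasim-tang, -0.0037 for Citri and 0.0031 for Bupleuri.

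Over the means of the 19 tested groups, without the 2 libraries that stood apart, the highest group mean exceeded the lowest by a median of 0.28 log2 for a core gene. The median over 11281 genes with a mean of at least 5 CPM was 0.44. The 2 sets were not matched for level, since the core genes averaged 67.2 to 1495 CPM in the vehicle. Counting noise widens this range more at low levels, so the medians do not show whether core genes varied less than other genes of their level. RPS26 (0.79), RPL3 (0.56) and RPL12 (0.52) were the 3 core genes of 77 that reached 0.5, which 4732 of the 11281 genes did, and all 3 were at an extreme in the high dose of Aconiti. RPS4X and RPSA varied least, each by 0.14. RPS4X had 969, 1035 and 969 CPM at the high dose of Aconiti, 922, 913 and 921 CPM at that of Cimicifugae and 977, 981 and 959 CPM in the vehicle, and was called in no comparison.

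Of the stalk proteins, which recruit translation factors to the large subunit, RPLP1 was called in no comparison, RPLP2 only in the high dose of Cimicifugae with all libraries, and RPLP0 in 4. RPLP0 had 850.0, 847 and 676 CPM at the high dose of Cimicifugae, 822, 836 and 910.4 CPM at that of Yijung-tang, 841, 841 and 874 CPM at that of Banhasasim-tang and 949.8, 952 and 979 CPM in the vehicle. It stood at -0.28 ± 0.0574 (adjusted p = 0.000135) against the vehicle with Cimicifugae, or at -0.18 (adjusted p = 0.000236) without the 2 libraries that stood apart, and at -0.17 (adjusted p = 0.0226) with Yijung-tang and at -0.17 (adjusted p = 0.0291) with Banhasasim-tang. Of the pairs of gene and copy, RPL39 was called in no comparison and RPL39L in 4, RPL22 and RPL22L1 in 8 each, while RPL26L1 was called with Cimicifugae and RPL26 with Aconiti and Citri.

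Other genes that serve the ribosome were counted in lists, to be read beside the percentages of all genes given above. Of 20 translation factors and related genes with TOP mRNAs, 12 rose and 1 fell at the high dose of Aconiti against the vehicle, with a median of 0.14 log2. EIF4B, an initiation factor that stimulates the helicase of the cap complex, stood at 0.51 ± 0.0305 log2 between high and low dose (adjusted p = 3.85e-20), with 354 ± 3.17 CPM at the high and 248 ± 10.2 CPM at the low dose (SD, n = 3 each). At the high dose of Cimicifugae 16 of the 20 fell and 0 rose (13 without the 2 libraries) and at that of Citri 14 fell and 0 rose. Between high and low dose of Cimicifugae 9 fell, of which EEF1B2 was the furthest (-0.30, adjusted p = 3.03e-06).

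Of 35 ribosome biogenesis genes, 30 fell and 0 rose at the high dose of Cimicifugae (27 without the 2 libraries), 20 fell and 0 rose at that of Citri, and 14 rose and 10 fell at that of Aconiti. NOP56, a protein of the particles that methylate ribosomal RNA, stood at -0.37 between the high and low dose of Cimicifugae (adjusted p = 9.65e-14), and NPM1, an assembly and export factor, at -0.28 between those of Citri (adjusted p = 7.98e-10). TAF1D, a factor of ribosomal RNA transcription, rose by 0.58 ± 0.0533 between the high and low dose of Aconiti (adjusted p = 1.81e-13). Of 12 chaperones and import factors of ribosomal proteins, 8 fell at the high dose of Cimicifugae (7 without the 2 libraries), 5 fell at that of Citri, and 4 rose and 5 fell at that of Aconiti. Of 12 snoRNA host genes, whose introns encode the guides of ribosomal RNA modification, 9 rose and 1 fell at the high dose of Aconiti. GAS5, whose RNA is itself of the TOP type, had 110.0 ± 8.55 CPM at the high and 58.3 ± 2.00 CPM at the low dose (SD, n = 3 each), a log2 difference of 0.92 ± 0.063 (adjusted p = 7.76e-18). Of 19 genes of the mTORC1 pathway and LARP1, 10 rose and 6 fell at the high dose of Aconiti. SESN2, an inhibitor of mTORC1 that rises in stress, had 124 ± 7.01 CPM at the high and 23.3 ± 1.41 CPM at the low dose, and stood at 2.41 ± 0.0527 (adjusted p = 8.87e-38). Of 10 p53 targets reported for ribosomal stress, 4 rose and 3 fell. GDF15, a stress cytokine that other pathways also induce, had 437 ± 11.9 CPM at the high and 7.38 ± 0.368 CPM at the low dose. Of 78 mitochondrial ribosomal protein genes, which were not in the set, 17 rose and 22 fell at the high dose of Aconiti and 1 rose and 22 fell at that of Cimicifugae (3 and 13 without the 2 libraries).

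Lists that bear on the libraries were counted as well, again to be read beside the percentages of all genes. The first held 406 other protein-coding genes with transcripts under 1000 bases and at least 5 CPM. Of these, 44 rose and 97 fell at the high dose of Cimicifugae (median -0.06 log2), where 15.1% of all genes rose and 17.5% fell. Without the 2 libraries 48 rose and 53 fell (median -0.01), where 12.7% of all genes rose and 14.6% fell. At the high dose of Aconiti 89 of them rose and 140 fell, where 31.5% of all genes rose and 28.9% fell. Of 5 histone genes tested 4 fell at the high dose of Aconiti, with a median of -0.78, and 3 rose at that of Yijung-tang, with a median of 0.36. Of 4 nuclear noncoding RNAs, 3 rose at each dose of Cimicifugae and at the high dose of Citri, and 2 at the medium and low doses of Citri. With Aconiti 2 rose at each dose, and 1 fell at the high dose. With Yijung-tang 2, 2 and 1 rose at the high, medium and low dose, with Banhasasim-tang 1 at each dose, and with Bupleuri 0. Of 15 mitochondrially encoded genes 2 rose and 8 fell at the medium and 2 rose and 6 fell at the high dose of Aconiti, with medians of -0.41 and -0.19 log2, although their summed share of the counts was higher there. At the high dose of Yijung-tang 13 rose and 2 fell, and at that of Cimicifugae 2 rose and 0 fell (median 0.20 log2). Without the 2 libraries that stood apart 0 rose and 1 fell at the high dose of Cimicifugae (median 0.04). The part of transcript length, RNA quality and mitochondrial RNA in the differences of the ribosomal protein genes was not tested.

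Bojungikgi-tang had 1 library at each dose, so its values carry no replicate check. The core genes took 3.63% of the counts in its high-dose library. RPS26 had 177, 166 and 184 CPM in the vehicle and 163 CPM at the low, 156 CPM at the medium and 142 CPM at the high dose. RPL3 had 584, 564 and 581 CPM in the vehicle and 542, 578 and 543 CPM at the 3 doses. RPL22L1 had 19.6, 19.3 and 18.96 CPM in the vehicle and 16.5, 16.7 and 15.6 CPM at the 3 doses. The high-dose value of RPS26 lay below the 3 vehicle libraries and above the 3 high-dose libraries of Aconiti.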

How the data were processed

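Per the labels' protocols, total RNA of SW1783 cells was made into directional mRNA libraries with an MGI kit and read as paired ends. Per the submitters' processing notes, the tools included RSEM 1.3.3, STAR 2.7.3a, Trim Galore 0.6.5 and FastQC 0.11.9, on hg38 or GRCh38. The release of the annotation, the strand setting and any filtering of reads are not given in the sources used. The authors deposited expected counts per gene, as RSEM estimates them (9.22% of the values were not whole), which were rounded for the tests. RSEM divides reads that fit several genes by estimate, so members with near-identical copies are uncertain: 1603 annotated pseudogenes of members held 0.0713% of the counts in all. Library totals were 18.9 to 36.4 M (M, mega) counts, and each of the 60 columns carried the name of 1 sample.

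Symbols were taken by Ensembl ID from a reference list of gene names, and gene types, positions and transcript lengths from GENCODE 29. The 57 libraries of the 19 groups with 3 libraries were fitted together in edgeR 4.0.16 under R 4.3.3 (filterByExpr, TMM factors, glmQLFit, glmQLFTest, Benjamini-Hochberg adjustment over 17190 genes), and a gene was called at an adjusted p under 0.05. The procedure was tested on simulated data. CPM are counts scaled to a common library size with TMM factors, and ± is the SD of a level or the SE of a log2 difference. Replicate libraries differed by more than sampling noise, with a chi-square of 1.77 to 24.0 per degree of freedom. The alternatives were DESeq2 1.42.0, other scalings, no filter, only the compared groups, a replicate block, pseudogene counts added, and libraries left out.

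The members and gene lists were chosen with earlier results of these data known. The rule for named genes took the stalk genes, RPSA, RPS4X, the pairs of close copies, RPL5, RPL11, RPS6, RPS19 and RPS26, and the 3 largest rises and falls called at the high dose of each extract with at least 5 CPM. In the other lists it took the called gene of largest change between the high and low dose, of which the text gives examples. Others are marked in the text as chosen after their values were seen. Results for some genes of the set are not reported here. Protein sequences were not used here.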

Additional observations from a re-analysis of the deposited data

Results flagged for a closer look

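The results here were picked out because the change between low and high dose differed between the extracts of a code set, each by a test of the difference itself in edgeR's quasi-likelihood fit. No explanation of these differences was tested.

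Between Aconiti and Bupleuri 16 core genes differed, 15 upwards (19.5% of the core genes) and 1 downwards (1.299%), where 22.9% of all genes differed upwards and 21.1% downwards, so both shares lay below those of all genes. As log2 differences of the high-over-low changes, Aconiti minus Bupleuri, RPS26 stood at -0.68 and the copy RPL7L1 at -0.25, while RPL22L1 stood at 0.63, RPL3 and RPL12 at 0.33 and RPL10A at 0.32. RPL10 differed by 0.22, RPL26 by 0.21, RPL22 by 0.14, RPL13A by 0.13 and RPL5 by 0.11.

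Between Citri and Cimicifugae 12 core genes differed with all libraries and 0 without the 2 that stood apart, where 1.40% of all genes differed upwards and 1.05% downwards. With all libraries, 11 core genes differed upwards and 1 downwards, where 5.54% of all genes differed upwards and 5.58% downwards. As Citri minus Cimicifugae, the copies RPL39L, RPL22L1 and RPS27L stood at 0.52, 0.48 and 0.39, RPL9 at 0.47, RPL7 at 0.27, RPL24 at 0.25 and RPSA at 0.16.

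Between Yijung-tang and Banhasasim-tang 3 core genes differed downwards (3.896%) and 0 upwards, where 5.53% and 4.54% of all genes did, so both shares lay below those of all genes. As Yijung-tang minus Banhasasim-tang, RPL37 stood at -0.36 and RPL10 at -0.24.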

How the results depend on the processing

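Shares of all genes called are given only for the main fit and for the fit without the 2 libraries that stood apart. The other counts below do not show whether a move was particular to core genes or shared by all genes. With library totals in place of TMM factors, the count of core genes called against the vehicle was 1 at the high and 0 at the low dose of Citri, 30 at the high and 2 at the medium dose of Cimicifugae, and 14 at the high and 8 at the medium dose of Aconiti. The median of all genes then lay at -0.12 for the high and -0.11 for the medium dose of Aconiti. Between high and low dose the counts were 1 for Citri, 20 for Cimicifugae and 13 for Aconiti, and 4 core genes differed between Aconiti and Bupleuri. RPL5 and RPS6 at the high dose of Aconiti changed sign, to -0.016 and -0.0094 log2, and of 96 values of named genes 56 kept their direction and their side of the threshold, and 38 were no longer called.

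Without a filter on low counts, the counts against the vehicle were 29 and 27 at the high and low dose of Citri, 2 at the low dose of Cimicifugae, 46 and 7 at the high and low dose of Aconiti, 23, 26 and 33 at the low, medium and high dose of Yijung-tang and 17, 16 and 19 at those of Banhasasim-tang. Between high and low dose they were 15 for Citri, 51 for Cimicifugae, 53 for Aconiti, 31 for Yijung-tang and 1 for Banhasasim-tang. The differences between extracts gave 36 (Citri and Cimicifugae), 34 (Aconiti and Bupleuri) and 14 (Yijung-tang and Banhasasim-tang).

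With only the compared groups fitted, the counts against the vehicle were 0, 2 and 45 at the low, medium and high dose of Citri, 2, 52 and 18 at those of Cimicifugae, 1, 28 and 46 at those of Aconiti, 4 at the high dose of Bupleuri, 26 and 33 at the low and medium dose of Yijung-tang and 20, 27 and 18 at the low, medium and high dose of Banhasasim-tang. Between high and low dose they were 1 for Citri and 2 for Cimicifugae, and the differences gave 0 for Citri and Cimicifugae and 35 for Aconiti and Bupleuri. The choice of groups fitted moves many counts by more than 1.5 times, and the cause was not tested.

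Without the 2 libraries that stood apart, the counts against the vehicle were 29 and 0 at the high and low dose of Citri, 1, 28 and 35 at the low, medium and high dose of Cimicifugae, 1 at the low dose of Aconiti, 19, 22 and 29 at the low, medium and high dose of Yijung-tang and 12, 11 and 13 at those of Banhasasim-tang. Between high and low dose they were 5 for Citri, 16 for Cimicifugae and 29 for Yijung-tang, and the differences gave 0, 31 and 9 in the order above. Of all genes in that fit, 4.58% rose and 4.93% fell at the low and 4.23% and 4.91% at the medium dose of Yijung-tang. For Banhasasim-tang the shares were 4.375% and 4.63% at the low and 5.46% and 5.74% at the medium dose. Between Aconiti and Bupleuri 23.1% of all genes differed upwards and 22.5% downwards, and between the 2 formulas 5.64% and 7.39%. DESeq2 gave 1 at the low dose of Cimicifugae, 19 for the difference of Citri and Cimicifugae and 6 for that of Yijung-tang and Banhasasim-tang, and the other 24 counts were within 1.5 times. Adding pseudogene counts, or TMM factors computed without ribosomal protein and mitochondrial genes, left all 27 counts within 1.5 times.

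With the replicate number as a block, the counts were 2 at the low dose of Citri, 21 for the difference of Citri and Cimicifugae and 5 for that of Yijung-tang and Banhasasim-tang, and the block changed no other count by over 1.5 times and no call of the 96 named values. The numbers did not pair the libraries: deviations of same-numbered libraries had correlations of -0.144 to 0.797 within a code set (median 0.0496) and of -0.157 to 0.219 with the vehicle.

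With 1 library left out, the lowest and highest counts against the vehicle at the low, medium and high dose were 0 to 6, 0 to 0 and 5 to 13 for Citri, 0 to 1, 0 to 11 and 25 to 59 for Cimicifugae, 0 to 0 at each for Bupleuri, 0 to 0, 8 to 12 and 22 to 25 for Aconiti, 3 to 9, 4 to 5 and 12 to 18 for Yijung-tang, and 3 to 5, 3 to 5 and 4 to 9 for Banhasasim-tang. Between high and low dose they were 1 to 7 for Citri, 9 to 46 for Cimicifugae, 0 to 0 for Bupleuri, 22 to 28 for Aconiti, 8 to 14 for Yijung-tang and 0 to 0 for Banhasasim-tang, and for the differences 1 to 33, 9 to 17 and 1 to 6.

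The share of counts taken by the core genes, as a percent of the vehicle mean, moved with the denominator: without mitochondrial counts it was 98.4 at the low, 102 at the medium and 103 at the high dose of Aconiti, 99.2 at the high dose of Yijung-tang and 99.9 at the medium dose of Banhasasim-tang, against 96.5, 96.4, 98.7, 97.3 and 98.8 with all counts. Most differences here are smaller than 0.3 log2, where scaling and the groups fitted change many calls; with 3 libraries a group, small differences may be missed.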
